A study of Mus musculus with 2 samples.

Results

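The killer cell lectin-like receptor (Klr) genes were followed in leukocytes of day 4 mouse melanomas, in a control library and in a library from hosts depleted of natural killer (NK) cells. All genes whose symbol starts with Klra, Klrb, Klrc, Klrd, Klre, Klrg, Klri or Klrk were taken, 26 of the 31053 genes listed. All 26 had at least 1 UMI (unique molecular identifier, 1 counted transcript molecule) in the filtered cells, and 21 had at least 20 over both libraries. The hosts were 8 weeks old C57BL/6 mice. Control hosts were untreated, and depleted hosts received 200 µg of anti-NK1.1 (clone PK136) and 30 µg of anti-asialo GM1 on days 0 and 2. NK1.1 is the protein of Klrb1c, itself a member. The sample titles and the series design name tumors that lack Ptgs in both groups, whereas the genotype label of both samples reads wild-type tumor cells. CD45+ cells were sorted from pooled tumors with parental melanoma cells spiked into both samples, and each group was 1 library, so no test over animals was possible and each difference below compares 2 libraries.

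The family encodes C-type lectin-like proteins that sit on the surface of NK cells and of some T and myeloid cells. Inhibitory members signal through a cytoplasmic motif that recruits the phosphatases Ptpn6, Ptpn11 or Inpp5d, and activating members borrow the adaptors Tyrobp (DAP12) or Hcst (DAP10). The Klra genes encode the Ly49 receptors, many of which bind classical MHC class I. Klrd1 (CD94) pairs with the NKG2 chains Klrc1, Klrc2 or Klrc3 and binds Qa-1. The Klrb1 genes encode NKR-P1 receptors, several of which bind Clec2 proteins, and Klrk1 (NKG2D) binds stress-induced ligands of the Raet1, H60 and Ulbp1 groups. Ly49 and several NKR-P1 receptors are known to be present on subsets of NK cells.

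The filtered control library held 5292 cells with 24810009 UMIs, and the depleted library 4506 cells with 23245982 UMIs. Median UMIs per cell were 4170 and 4893, respectively. The libraries shared 5 cell barcodes among these cells. Clustering, in which no Klr gene took part, gave 20 clusters, of which 17 carried the names of 8 classes and 3 stayed unnamed (11.6% of control and 9.06% of depleted cells). Scrublet called 41 control and 31 depleted cells as doublets, whereas 285 control and 39 depleted cells held markers of more than 1 class. NK-like cells numbered 543 in the control library (10.3%, 95% interval 9.46 to 11.1) and 1 in the depleted library, and all 14 NK markers were found in the control cells. Intervals here and below are exact binomial or Poisson intervals at 95% and cover counting error only.

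All 26 genes lie on chromosome 6 of GRCm38 as protein-coding genes, and 24 of them within chr6:128609227-131247362, a stretch of 2.64 Mb. Klrg1 (chr6:122270596-122282882) and Klrg2 (chr6:38625693-38637242) lie apart. Because the assay counts the 3′ ends of transcripts, near-identical ends decide which members can be told apart. Among annotated transcript ends (the last 400 bases), 15 members shared at least 1 stretch of 60 bases with another gene and 11 shared none. Klra4, Klra2, Klra17, Klrd1, Klre1, Klrk1 and Klrg1 shared none. The share of such stretches was 8.21% for Klra8, 21.1% for Klra7, 24.8% for Klra3, 30.5% for Klra9, 41.9% for Klra10 and 49.2% for Klrc1. It was 20.02% for Klrb1b and 13.6% for Klrb1c, which share with each other and with Klrb1a and Gm44511, and 13.2% for Klrc2, which shares with Klrc1. Counts of all these genes are therefore uncertain between paralogs, those of Klrc1, Klra10, Klra9 and Klra3 most. Klrb1b and Klrb1c also overlap Gm44511 on the same strand.

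The ends of the coding sequences show how close the 6 Ly49 genes are that were found in at least 10% of NK-like control cells below. The last 60 coding bases of GENCODE transcripts are given, and capitals mark bases that differ from Klra4 at the same distance from the stop codon.
Klra4 (Ly49D): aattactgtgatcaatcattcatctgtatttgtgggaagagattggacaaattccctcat
Klra8 (Ly49H): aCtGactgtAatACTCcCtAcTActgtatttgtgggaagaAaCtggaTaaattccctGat
Klra9 (Ly49I): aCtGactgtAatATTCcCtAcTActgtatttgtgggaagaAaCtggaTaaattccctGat
Klra3 (Ly49C): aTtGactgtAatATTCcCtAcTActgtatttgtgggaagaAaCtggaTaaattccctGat
Klra7 (Ly49G): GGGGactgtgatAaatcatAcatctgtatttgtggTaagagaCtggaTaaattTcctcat
Klra1 (Ly49A): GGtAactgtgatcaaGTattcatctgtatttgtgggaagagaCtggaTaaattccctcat
Klra8, Klra9 and Klra3 each differed from Klra4 at 15 of these bases, Klra7 at 10 and Klra1 at 7. Klra2, the Ly49 gene with the most UMIs over all cells, is not shown. Compared base by base without alignment it differed at 46, and aligned over the whole coding sequence it was 67.8% identical to Klra4. Over the whole coding sequence, the 55 pairs of Klra genes were 67.7 to 96.9% identical (median 78.4%). Klra3 and Klra9 were 95.9% identical and Klra8 and Klra9 91.9%, whereas the activating receptors Klra4 and Klra8 were 78.3% identical.

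The promoters are shown because Ly49 genes with a common promoter block were found below in different cell types. Of 11 Klra genes with windows of RefSeq (GRCm38.p6, 250 bases before to 50 after the start), 8 held GCAATTTCCT on either strand. It was in 0 of 12 other members with windows, in 36 of all 27025 genes and in 0.119% of all 32851 windows. These 10 bases were searched for as the stretch of the Klra4 window that the most Klra genes held, so their share among Klra genes is a description. They are in capitals in these stretches of 60 bases on the minus strand.
Klra4 (chr6:130067320-130067379): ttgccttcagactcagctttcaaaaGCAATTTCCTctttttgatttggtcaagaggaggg
Klra8 (chr6:130129948-130130007): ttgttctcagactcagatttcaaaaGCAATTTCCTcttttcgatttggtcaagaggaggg
Klra2 (chr6:131247403-131247462): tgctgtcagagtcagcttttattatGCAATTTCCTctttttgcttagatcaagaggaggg
Klra17 (chr6:129876716-129876775): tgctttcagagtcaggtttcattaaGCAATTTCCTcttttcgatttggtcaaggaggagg
In the control library 92.7% of Klra4 UMIs lay in NK-like cells, whereas in the depleted library 88.6% of its 79 UMIs lay in an unnamed cluster with little Ptprc. Klra2 and Klra17 were found in myeloid cells. The letters TGTGGT, the core known to be bound by Runx factors, stood in 7 of the 12 other members with windows and in 1 of 11 Klra genes (Klra1). They stood in 5113 of all 27025 genes, or in 16.8% of all windows. Klrb1c on the minus and Klre1 on the plus strand are shown.
Klrb1c (chr6:128788696-128788755): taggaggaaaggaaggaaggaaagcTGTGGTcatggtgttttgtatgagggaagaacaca
Klre1 (chr6:129577963-129578022): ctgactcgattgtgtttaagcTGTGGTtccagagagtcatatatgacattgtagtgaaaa
No window was at hand for Klrd1, Klrg1 and Klri2.

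In the control library the family was foremost an NK-like gene set. NK-like cells held 9880 of 14770 Klr UMIs (66.9%, 66.1 to 67.7), or 7326 counts per 1000000 UMIs of those cells (CPM), against 208 CPM over all other control cells. Every NK-like control cell had a UMI of at least 1 member, with a mean of 7.71 members per cell (SD over cells 2.10) and a highest of 13. Levels of different genes are compared per molecule, as UMIs are counted at transcript ends and do not scale with transcript length. The map of levels by class shows the division of the family among cell types.

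**Figure D1:**
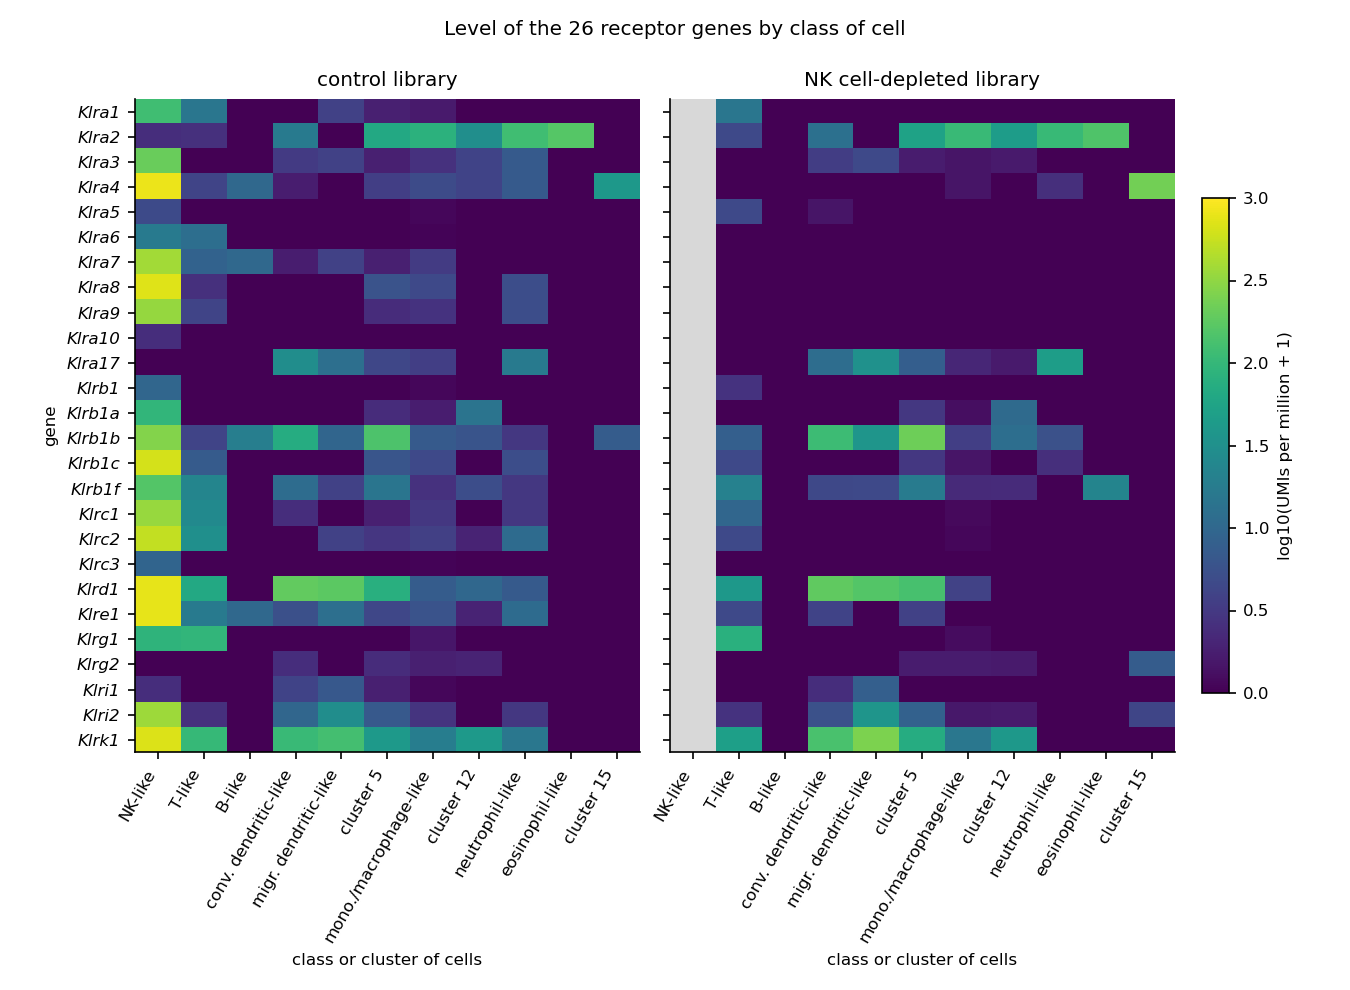
Level of each Klr gene (rows) in the cell classes and unnamed clusters of each library (columns), as colour on a scale of log10(CPM + 1); the grey column is the single NK-like cell of the depleted library, and clusters 5, 12 and 15 are unnamed. NK-like cells of the control library carried most members, whereas Klra2, Klra17, Klrb1b, Klrd1 and Klrk1 were also present in myeloid or dendritic-like cells of both libraries.

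The receptors that are known to be broadly present on NK cells led the order of detection. Klre1, which pairs with Klri1 or Klri2, was found in 81.0% of NK-like control cells (77.5 to 84.2) at 781 CPM. Klrd1 was found in 78.8% (75.1 to 82.2) at 764 CPM and Klrk1 in 78.5% (74.8 to 81.8) at 689 CPM. These 3 shares lay within each other's counting intervals. Klrb1c, the gene of the depleting antibody's target, followed in 74.0% (70.1 to 77.7) at 638 CPM. Monocyte/macrophage-like control cells were deeper (median 4750 against 2140 UMIs), yet held Klre1 in 1.24%, Klrd1 in 1.82%, Klrk1 in 6.27% and Klrb1c in 1.07% of cells.

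Of the NKG2 chains, the activating Klrc2 was found in more NK-like cells than the inhibitory Klrc1. Klrc2 was in 64.6% (60.5 to 68.7) at 524 CPM, and Klrc1 in 37.0% (32.9 to 41.2) at 346 CPM. Klrc1 shared 49.2% and Klrc2 13.2% of the end stretches, and the part of shared reads in this order was not tested. Klrc3 was in 2.03% of cells with 11 UMIs in all. The activating Klri2 was in 45.7% at 361 CPM, whereas its inhibitory counterpart Klri1 had 2 UMIs. Klrc2 and Klri2 thus stood far above Klrc3 and Klri1, the paralogs that share their partners Klrd1 and Klre1.

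The Ly49 genes were each found in a part of the NK-like cells. The activating receptors Klra8 (Ly49H) and Klra4 (Ly49D) were in 47.0% (42.7 to 51.3) and 44.6% (40.3 to 48.9) of cells, at 713 and 819 CPM, so that Klra4 had 1105 UMIs and Klra8 962, beside 1053 of Klre1 and 1031 of Klrd1 in more cells. The inhibitory Klra7 was in 42.4% (38.2 to 46.6) at 384 CPM, Klra9 in 35.0% at 333 CPM, Klra3 in 25.97% at 205 CPM and Klra1 in 11.2% at 119 CPM. The intervals of Klra8, Klra4 and Klra7 overlapped, and Klra1 was the lowest of the 6 Ly49 genes found in at least 10% of cells. The other 5 were rare or not found there: Klra6 with 21 UMIs, Klra5 with 5, Klra2 and Klra10 with 2 each, and Klra17 with 0 of 543 cells, a count that limits the share of cells with a UMI, not of cells that express the gene, to 0.552% (3 counts).

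Of the NKR-P1 genes after Klrb1c, the inhibitory receptor Klrb1b was in 35.0% (31.0 to 39.2) of NK-like control cells at 273 CPM, Klrb1f in 26.7% at 156 CPM and Klrb1a in 19.0% at 92.7 CPM. Klrb1 had 12 UMIs. Klrg1, an inhibitory receptor for cadherins, was in 16.0% (13.04 to 19.4) at 87.5 CPM, and Klrg2 had none. In all, 17 of 26 members were found in at least 10% of NK-like control cells. With each cell thinned to 1000 UMIs (518 cells deep enough), the share fell to 58.7% for Klre1, 37.8% for Klra8, 36.3% for Klra4 and 9.46% for Klrg1 and Klrb1a, so each share depends on depth.

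**Figure D2:**
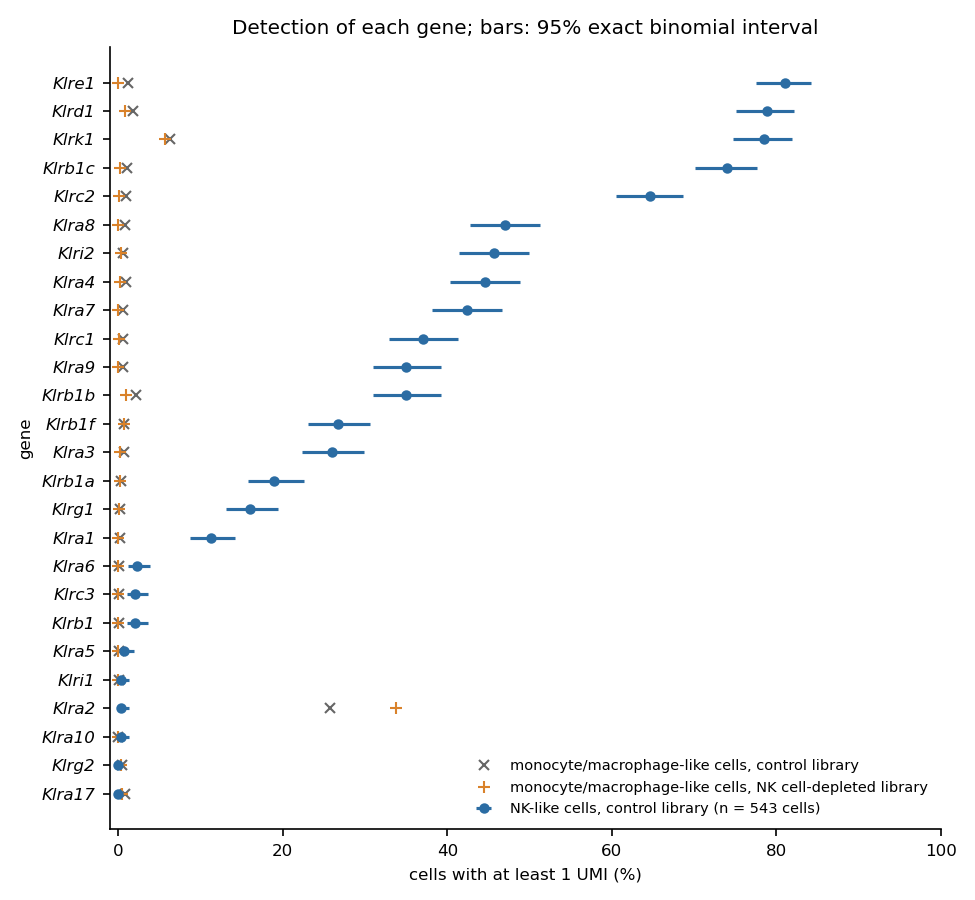
Share of NK-like control cells (n = 543) with at least 1 UMI of each Klr gene, in percent, with exact 95% binomial intervals. Crosses and plus signs give the shares in monocyte/macrophage-like cells of the control and the depleted library. Klre1, Klrd1 and Klrk1 lie near 80% and 6 Ly49 genes between 11.2 and 47.0%.

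Single NK-like cells carried different combinations of Ly49 genes. On average 2.10 Ly49 genes were seen per cell (SD over cells 1.20, median 2), with a highest of 5. No Ly49 gene was seen in 56 of 543 cells (10.3%, 7.89 to 13.2), exactly 1 in 21.9%, 2 in 28.9%, 3 in 26.9%, 4 in 10.5% and 5 or more in 1.47%. Thinned to 1000 UMIs, the mean was 1.48 and 20.7% of cells showed none. Both activating genes, Klra4 and Klra8, were found together in 136 cells.

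**Figure D3:**
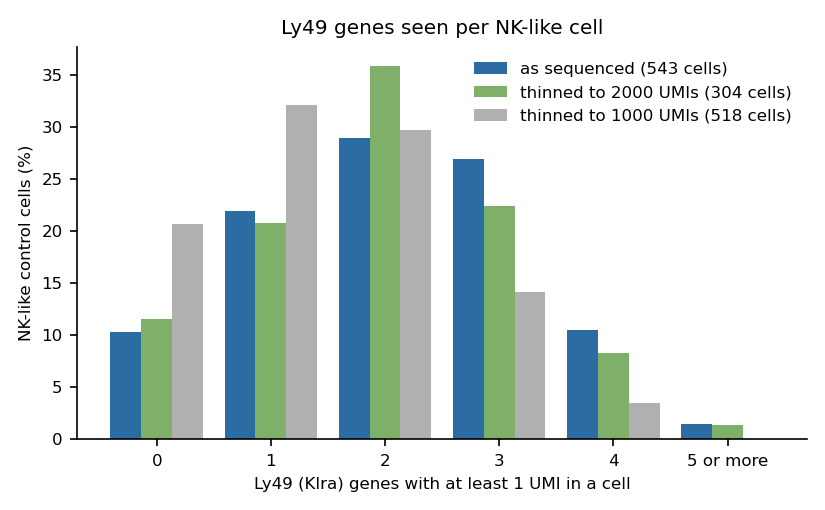
Share of NK-like control cells, in percent, by the number of Ly49 genes seen in the cell, as sequenced (543 cells) and thinned to 1000 (518 cells) or 2000 UMIs (304 cells). Most cells showed 1 to 3 Ly49 genes at each depth, and the share with none was 10.3%, 20.7% and 11.5%.

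Pairs of members were compared in the 304 cells thinned to 2000 UMIs, as the share of cells with both genes divided by the product of the single shares. For the 15 pairs of the 6 Ly49 genes this ratio was 0.688 to 1.28 (median 0.973), where 1 is the value for genes that occur together as often as their shares give. Over all 136 pairs of the 17 members the median was 0.999. The lowest ratio was 0.446 for Klra4 and Klrb1b, and Klra4 and Klrc1 had 0.514. The highest was 1.78 for Klra3 and Klrg1, and Klrb1b and Klrc1 had 1.65. These ratios are a description of 1 library. Pairs among Klra3, Klra8 and Klra9, among Klrb1a, Klrb1b and Klrb1c, and Klrc1 with Klrc2 can share reads. So can Klra1 with Klra4, the Ly49 pair with the highest ratio (1.28).

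At a finer clustering the same cells fell into a Gzma, Prf1 and Ccl5 cluster of 356 cells (median 1758 UMIs) and an Xcl1, Il2rb and Ctla2a cluster of 187 cells (median 3254 UMIs). Relative to the first, the Xcl1 cluster held less Klra9 (0.448-fold, 0.366 to 0.547), Klra3 (0.548), Klrb1c (0.561, 0.488 to 0.645) and Klrg1 (0.591). Klrk1 (0.615), Klrb1b (0.621), Klre1 (0.679), Klra8 (0.683), Klra4 (0.746), Klrc2 (0.757), Klri2 (0.766) and Klrd1 (0.874) were also lower beyond counting error. Klra7 (0.899, 0.754 to 1.07), Klrc1 (0.866), Klrb1a (0.701), Klrb1f (1.01) and Klra1 (1.37, 0.991 to 1.92) did not differ beyond counting error. By share of cells with a UMI, Klrb1c was in 79.7% of the Xcl1 cluster against 71.1%, and Klra9 in 34.8% against 35.1%. Because UMIs per cell differed between the clusters, these folds are of CPM, and genes of a cluster were not tested against those of the other.

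Between the libraries, Klr genes were lower in the depleted one, which held 1 NK-like cell. Over all filtered cells they amounted to 595 CPM in the control and 194 CPM in the depleted library, a 3.08-fold difference (2.97 to 3.18) that was 5.12-fold with every cell thinned to 1000 UMIs. Of 21 members with at least 20 UMIs, 16 were at least 2-fold higher in the control library and 0 were lower, where 3.90% and 1.80% of all 12677 genes measured in this way were called. The median log2 ratio of the members was 3.81, against 0.01 over all genes. Members such as Klra8 (1039 control and 0 depleted UMIs) and Klrc2 (782 and 4) reached the minimum through the control library alone. With 543 and 1 NK-like cells, this count and median are a description and no separate support. At the level of a whole library, fewer cells of a type and less RNA per cell cannot be told apart. The number of cells named NK-like also depended on the clustering. At resolution 2, 3 clusters took this name, with 356, 188 and 46 control and 0, 1 and 25 depleted cells. The last was led by Terf2ip, Il10 and Ikzf2 and had 2 NK markers among its 50 leading genes. The filtered depleted library held 0 UMIs of Ncr1, 0 of Gzma and 2 of Eomes.

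The members known mainly from NK cells differed most. Klra8 had 1039 control UMIs and 0 in the depleted library (at least 325-fold higher in control, with 0 set to 3 counts), Klra7 had 566 and 0 (at least 177-fold) and Klra9 486 and 0 (at least 152-fold). Klrc2 fell from 782 to 4 UMIs, 183-fold (71.3 to 674), Klre1 from 1170 to 12, 91.4-fold (52.1 to 177), and Klrb1c from 940 to 14, 62.9-fold (37.3 to 116). Klra6, Klra10 and Klrc3 were also at 0 in the depleted library. Klra1 had 183 control UMIs and 8 in the depleted library, all in 1 T-like cell.

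The members also found in other leukocytes differed less. Klrd1 was 2.47-fold higher in the control library (2.26 to 2.70), Klrk1 1.99-fold (1.83 to 2.17) and Klrb1b 1.63-fold (1.47 to 1.80). Klra17 (1.09, 0.817 to 1.47) did not differ beyond counting error, and Klra2 was 0.777-fold (0.728 to 0.830), that is, higher after depletion. Outside the NK-like class, Klr UMIs were 4890 in the control and 4494 in the depleted library, 208 against 193 CPM (1.08-fold, 1.04 to 1.12). The only NK-like cell of the depleted library had 3 UMIs of Klrc1, 2 of Klrb1f and 2 of Klrk1.

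UMIs of NK-type members were also counted in other control cells. For 10 such genes (Klrb1c, Klre1, Klrc1, Klrc2, Klra1, Klra3, Klra4, Klra7, Klra8 and Klra9), monocyte/macrophage-like cells held 431 control UMIs (27.2 CPM, 4.00% of cells) and 29 depleted UMIs (1.77 CPM, 0.855%), against 4861 CPM in NK-like cells. Of the 431 UMIs, 331 (76.8%) lay in 34 of 3076 cells that also held at least 3 NK markers, and 6.41 CPM remained in the other cells. This moved with the whole NK marker list, whose 14 genes summed to 82.1 CPM in control and 13.01 CPM in depleted monocyte/macrophage-like cells, with Ncr1 and Gzma at 0 in the latter. Of 17 members measured in this class, 13 were at least 2-fold higher in control and 0 lower (3.03% and 0.860% of 11632 genes), and 9 of the 13 were NK-type genes of the 10. The part of droplets that held an NK cell beside another cell was not tested.

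T-like cells numbered 287 in the control and 223 in the depleted library, with median UMIs of 2083 and 2333. They carried few Klr genes, 404 and 238 CPM in all (1.70-fold, 1.37 to 2.10), and the Klr genes with most UMIs were Klrk1, Klrg1 and Klrd1. Klrk1 had 64 and 27 UMIs, 101 and 48.0 CPM (2.10-fold, 1.32 to 3.43), in 12.5% and 6.28% of cells. Klrd1 had 40 and 22 UMIs (1.61-fold, 0.936 to 2.85), and Klrg1 59 and 45 (1.16-fold, 0.776 to 1.75), neither beyond counting error. The NKG2 chains fell from 19 to 2 UMIs for Klrc2 (8.43-fold, 2.03 to 74.6) and from 16 to 5 for Klrc1 (2.84-fold, 0.994 to 9.91). Of 6 members measured, 3 (Klrc1, Klrc2 and Klrk1) were at least 2-fold higher in control and 0 lower (3.77% and 3.29% of 6600 genes). T-like cells with at least 3 NK markers numbered 61 in the control and 19 in the depleted library, and without them the total ratio was 1.23. The part of NK transcripts in this result was not tested.

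T-like cells were also counted by the T cell genes they held. In cells with Foxp3, the factor of regulatory T cells, Klrg1 had 31 UMIs in 10 of 31 control cells and 17 in 6 of 20 depleted cells, whereas Klrd1 and Klrk1 had none. In cells with Cd8a or Cd8b1, Klrd1 had 19 UMIs in 16 of 38 control cells and 14 in 9 of 26 depleted cells, and Klrg1 had none in either library. Klrk1 and Klrc1 in these cells had 15 and 10 UMIs in the control and 0 in the depleted library. In cells with Trdc, a γδ T cell gene, Klrk1 was in 7 of 30 control and 4 of 11 depleted cells. In cells with Cd4, both genes were found, Klrg1 in 7 of 61 control and 2 of 65 depleted cells and Klrd1 in 1 and 2. Klrg1 thus led in Foxp3 cells and Klrd1 in Cd8a or Cd8b1 cells in both libraries, from few cells.

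Klra2 (Ly49B), a Ly49 gene known from myeloid cells, was the leading member in monocyte/macrophage-like cells. It had 1317 UMIs in 3076 control cells (83.1 CPM, 25.7% of cells) and 1748 in 2923 depleted cells (107 CPM, 33.8%), a ratio of 0.778 (0.724 to 0.836). NK-like cells, where it should be absent, held it in 0.368% of 543 control cells. Neutrophil-like cells had 119 and 105 CPM (1.13-fold, 0.784 to 1.63), and conventional dendritic-like cells 16.3 and 11.96 CPM.

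Within the class Klra2 differed more between clusters than between libraries. The cluster of Ace and Chil3, genes of patrolling and inflammatory monocytes, had 368 CPM in control and 313 CPM in depleted cells (1.18-fold, 1.03 to 1.34), in 66.4% and 69.2% of cells. The Havcr2 and Hes1 cluster had 182 and 213 CPM (0.855-fold, 0.683 to 1.07) and the Vcan and Ly6c2 monocyte cluster 155 and 158 CPM (0.980-fold, 0.801 to 1.19). The macrophage clusters were lower, with 54.4 and 49.1 CPM in the Ccl8 and Lyve1 cluster, 50.9 and 45.5 CPM in the Pf4 cluster and 35.9 and 38.1 CPM in the Gpnmb cluster. Of the 9 clusters, 3 were higher in control (1 beyond counting error) and 6 lower (1 beyond counting error, at 34.2 and 99.3 CPM from 8 and 15 UMIs). The depleted library had more cells of the Klra2-rich clusters, 448 against 244 in the Ace cluster and 443 against 175 in the Vcan cluster, and fewer of the Pf4 cluster, 371 against 804. With the 9 clusters at equal weight the ratio was 0.945 (117 and 124 CPM), where a cluster of few UMIs counts as much as the others. The part of the makeup of the class in the lower control total was not tested.

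**Figure D4:**
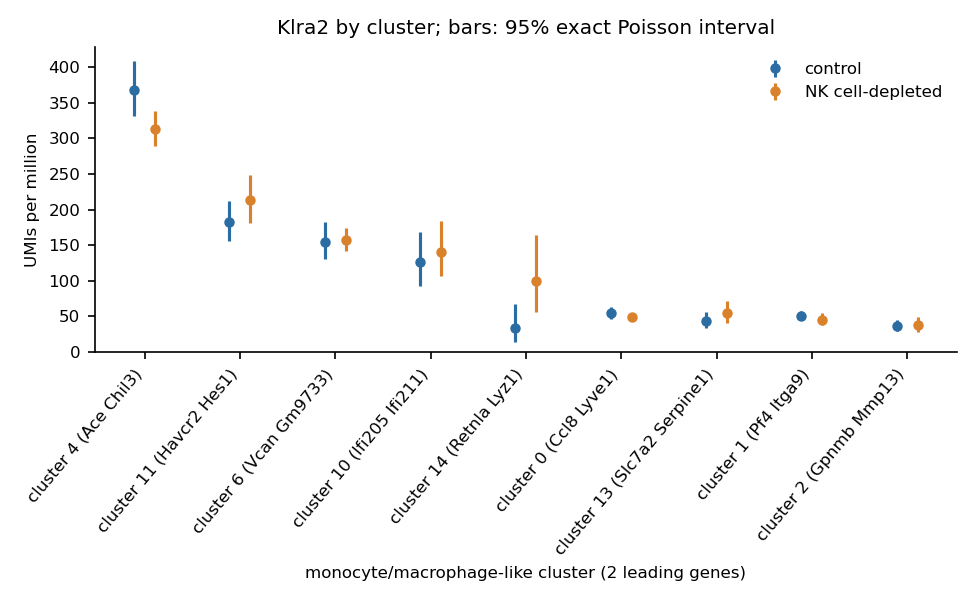
Klra2 level in CPM with exact 95% Poisson intervals in each monocyte/macrophage-like cluster, in control and depleted cells. The Ace and Chil3 cluster stands highest at 368 and 313 CPM, and the cluster at 34.2 and 99.3 CPM is the only other one outside counting error.

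Klrk1 was the second member of these cells by UMIs. Its 277 control and 236 depleted UMIs gave 17.5 and 14.4 CPM (1.21-fold, 1.02 to 1.45). The Ccl8 and Lyve1 macrophage cluster held 104 and 117 of them (1.52-fold, 1.16 to 2.00) and the Pf4 cluster 49 and 3. Klrk1 was higher in control in 8 of 9 clusters, in 3 of them beyond counting error. In the Pf4 cluster the 10 NK-type genes had 202 control and 8 depleted UMIs, with 86.1% of the former in 16 cells that held at least 3 NK markers, and Klrk1 stood at 689 CPM in NK-like cells. The part of NK transcripts in these Klrk1 counts was not tested. Cluster 12, unnamed, with Retnla and Il6 among its leading genes, had Klrk1 at 39.5 and 39.0 CPM, in 27.8% and 27.3% of cells.

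Klrb1b, an inhibitory NKR-P1 receptor whose ligand is Clec2d, was found in dendritic-like cells of both libraries. Conventional dendritic-like cells had 95 UMIs in 229 control cells (70.5 CPM, 20.1% of cells) and 229 in 304 depleted cells (114 CPM, 32.9%), a ratio of 0.618 (0.481 to 0.788). Unnamed cluster 5, led by Cdh1, Spint1, Ccl17 and Mgl2 held more, 502 UMIs in 447 control cells (143 CPM, 49.2%) and 313 in 173 depleted cells (217 CPM, 58.4%), at 0.658-fold (0.570 to 0.760). Klrb1b was thus higher after depletion in both places, although the first ratio was 0.966 when cells were clustered without upper limits, where the class also took in cells with Cdh1. Monocyte/macrophage-like cells held it in 2.18% and 0.924% of cells, and migratory dendritic-like cells had 3 and 10 UMIs.

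Conventional dendritic-like cells with Cd209a or Cd209d had 64 Klrb1b UMIs in 161 control and 177 in 207 depleted cells (0.543-fold, 0.402 to 0.727). Those with Xcr1 or Clec9a, genes of type 1 dendritic cells, had 16 UMIs in 29 control and 35 in 43 depleted cells (0.638-fold, 0.330 to 1.18). Cells with genes of both kinds had 2 and 8 UMIs (0.353-fold, 0.0365 to 1.77), and cells with neither 13 and 9 (2.35-fold, 0.929 to 6.23). Whether the subsets differed from each other was not tested. Klrd1 was the most abundant member in the class, with 258 and 370 UMIs (191 and 184 CPM, 1.04-fold, 0.882 to 1.22), mostly in the Cd209a or Cd209d cells. It was in 109 of 229 control and 152 of 304 depleted cells and did not differ between libraries beyond counting error. Klrk1 had 145 and 277 UMIs (0.779-fold, 0.633 to 0.956). In migratory dendritic-like cells, marked by Ccr7 and Fscn1, Klrk1 was 0.491-fold (0.329 to 0.725) at 44 and 71 UMIs and Klrd1 1.14-fold (0.762 to 1.73).

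In the Cdh1 and Ccl17 cluster, Klrd1 and Klrk1 also ran lower in control. Klrd1 had 270 and 192 UMIs (0.576-fold) and Klrk1 143 and 103 (0.569-fold). Of 8 members measured there, 1 (Klrb1c) was at least 2-fold higher and 1 (Klra17) at least 2-fold lower in control, where 2.65% and 1.92% of 9376 genes were called. In conventional dendritic-like cells 2 of 7 (Klra17 and Klrb1f) were at least 2-fold higher and 0 lower, where 2.27% and 2.26% of 8597 genes were called.

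**Figure D5:**
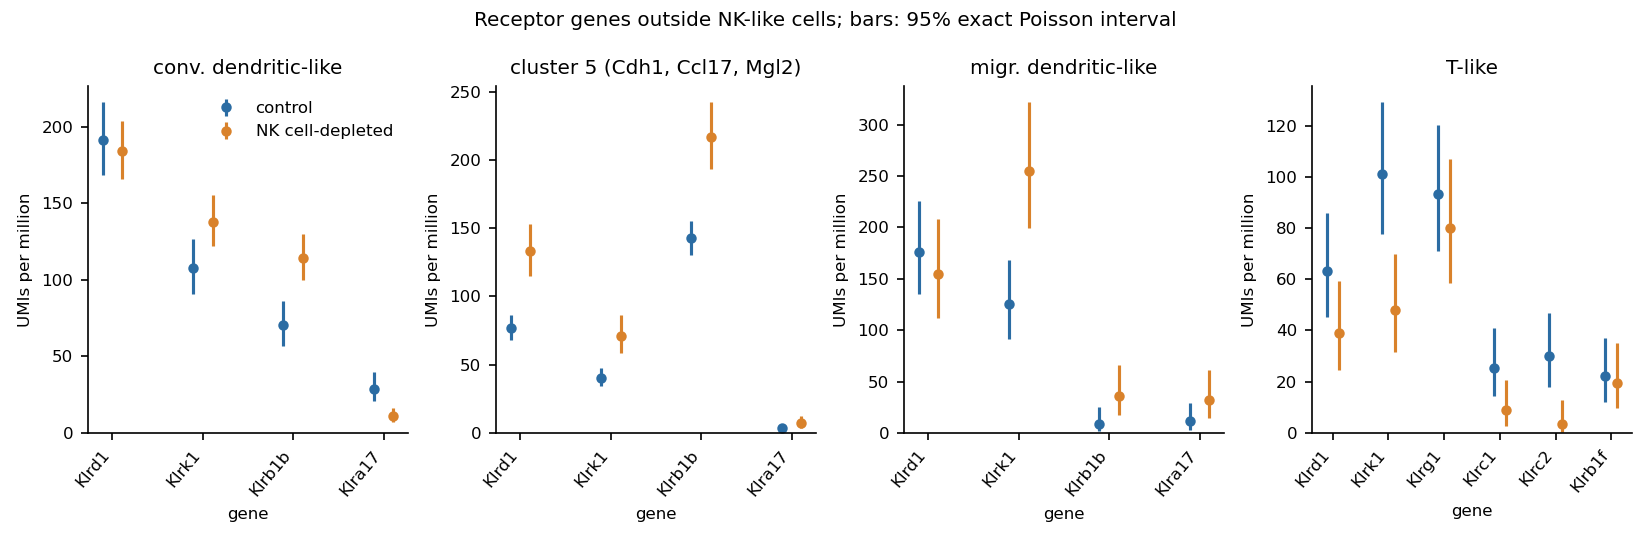
Levels in CPM of the leading Klr genes in conventional dendritic-like cells, the unnamed Cdh1 and Ccl17 cluster (cluster 5), migratory dendritic-like cells and T-like cells of each library, with exact 95% Poisson intervals. Klrb1b is higher in depleted cells in the first panels, at 114 against 70.5 CPM and 217 against 143 CPM, and Klrk1 is higher in control T-like cells.

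Klra17 (Ly49Q), known from plasmacytoid and myeloid cells, changed sign between classes. It had 39 and 22 UMIs in conventional dendritic-like cells (28.9 and 11.0 CPM, 2.64-fold, 1.53 to 4.67) and 42 and 18 in monocyte/macrophage-like cells (2.41-fold, 1.36 to 4.45). In neutrophil-like cells it had 8 and 30 UMIs, 16.4 and 46.2 CPM (0.354-fold, 0.140 to 0.790). The total outside the NK-like class was 105 and 90 UMIs, 1.16-fold (0.864 to 1.55). The total adds up classes of opposite direction, and it was 0.575-fold thinned to 1000 UMIs per cell, 0.641-fold as a mean over cells and 0.932-fold without conventional dendritic-like cells.

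Klrg2 was rare, with 21 control and 15 depleted UMIs, of which 13 and 11 were in monocyte/macrophage-like cells. Klra5, Klra10, Klrb1, Klrc3 and Klri1, the members under 20 UMIs over both libraries, had 2 to 18 UMIs over both libraries in all. B-like and eosinophil-like cells had 5 and 2 Klr UMIs in control and 0 and 8 in the depleted library.

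Unnamed cluster 15, led by Cyr61, Prkg2, Cavin2 and Serpinh1, stood apart, with the leukocyte gene Ptprc in 7.87% of its cells. Its Klra4 count was 6 UMIs in 57 control cells (38.3 CPM, 10.5% of cells) and 70 in 70 depleted cells (229 CPM, 44.3%), a ratio of 0.167 (0.0594 to 0.383). Klra8 had none there, whereas NK-like control cells held 1105 Klra4 and 962 Klra8 UMIs. This cluster held 70 of the 79 Klra4 UMIs of the depleted library. Klra4 was thus 14.1-fold higher in the control library over all cells (11.3 to 18.0), and 1.09-fold (0.795 to 1.499) outside the NK-like class. The second ratio adds up opposite directions, as Klra4 was at least 2-fold higher in control in monocyte/macrophage-like cells. Clusters at resolution 2 with leading genes of cluster 15 held 51 control and 48 depleted cells (Crabp1 first) and 6 and 22 (Cyr61 first). The part of this makeup in the ratio of 0.167 was not tested. In deeper cells with little Ptprc, described below, the Klra4 ratio was 0.815 (0.741 to 0.897). Whether cluster 15 held the parental melanoma cells spiked into both samples was not tested.

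The adaptors and ligands of the receptors were compared in the same classes. NK-like control cells had Tyrobp at 1433 CPM, Fcer1g at 1253 CPM and Hcst at 662 CPM. Of 6 adaptor and phosphatase genes, all were within 2-fold between libraries in monocyte/macrophage-like and conventional dendritic-like cells and in the Cdh1 cluster. In T-like cells 1 (Fcer1g) was higher in control, with 50 and 5 UMIs (8.87-fold, 3.56 to 28.5). In these cells the 14 NK markers summed to 1094 and 827 CPM, with Gzma at 15 and 0 UMIs and Ncr1 at 1 and 0, and the part of NK transcripts was not tested. In migratory dendritic-like cells 1 of 5 (Ptpn11) was lower in control (0.475-fold, 0.212 to 1.02), and in cluster 15 1 of 2 (Fcer1g) was higher (6.24-fold, 2.19 to 21.8). Of 15 ligand genes listed, 10 were measured in monocyte/macrophage-like cells and all were within 2-fold, as were 5 in T-like cells. Cdh1, the ligand of Klrg1, was 3.604-fold higher in control (2.45 to 5.41) in conventional dendritic-like cells, at 92 and 38 UMIs, and 0.432-fold in the cluster it led. In cluster 15, 1 of 3 ligands (H2-K1) was 2.30-fold higher in control (1.55 to 3.402). In NK-like control cells the class I genes H2-K1 and H2-D1 were at 3387 and 1671 CPM, H2-T23 (Qa-1) at 306 CPM, and Clec2d and Clec2i at 228 and 51.9 CPM.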

How the data were processed

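For each library the authors deposited UMI counts of called cells from Cell Ranger (release 3.0.2 per the file headers, another in the study's methods) on mm10, a name for GRCm38, per the labels. A deposited table of log2(CPM + 1) values was not used here. From the counts, cells with 500 to 15000 UMIs, between 200 and 4000 genes and no more than 10% mitochondrial UMIs were kept, 9798 of 11651. They were clustered with leidenalg 0.10.2 (2000 variable genes, 15 components, 20 neighbours, Leiden resolution 1), with all Klr genes left out of variable genes and markers. Scrublet was run through scanpy 1.11.5. Clusters were named from listed markers, by thresholds set after the clusters had been seen, so class names are rebuilt and may differ from the study's. Doublet calls and cells with markers of more than 1 class (mixed cells) were kept, and leaving both out was an alternative.

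UMIs were summed per library and class. With 1 library per group no test was run: ratios carry exact conditional binomial intervals, and a count of 0 was set to 3 counts. A gene was called with at least 20 UMIs over both libraries in a class and a ratio of at least 2 or at most 0.5. A gene could reach this minimum of UMIs through 1 library alone. Every member was accounted for, and those with at least 20 UMIs were given values. Members and lists were chosen with earlier results of these data known. The ratio code was tested on simulated data. Gene positions came from GENCODE vM21 and promoters from RefSeq.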

Additional observations from a re-analysis of the deposited data

Results flagged for a closer look

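Cells above the upper limits of 15000 UMIs or 4000 genes took part in no comparison. When all cells were clustered without these limits, a pair of clusters had Ptprc in few cells, with Serpinh1, Hmga2 or Crabp1 among the leading genes. Klra4 stood out there: of the cells above the limits in these clusters, 94.5% of 109 control cells (88.4 to 98.0) and 92.2% of 230 depleted cells (87.9 to 95.3) had a Klra4 UMI. They are given here as a signal in cells outside the comparisons, above the limit that a count of 0 allows. The 625 control and 1398 depleted UMIs came to 157 and 193 CPM, a ratio of 0.815 (0.741 to 0.897). The cells had medians of 27941 and 28408 UMIs, and thinned to 2000 UMIs 23.9% and 30.4% of them had a Klra4 UMI. Ptprc was in 14.7% and 11.3% of these cells. Klra8 had 0 UMIs in both libraries, Klra6 had 11 and 26, Klra2 21 and 61, and Klrg2 2 and 17. Klra7, Klrb1c, Klrd1 and Klre1 had 1 control and 0 depleted UMIs each. The melanoma markers Mlana, Pmel, Dct and Sox10 had 0 UMIs in these clusters, and the other listed melanoma markers are not given. Genes of other cell types were also near 0. In the Serpinh1 cluster the fibroblast genes Col1a1 and Col1a2 had 0 and 2 UMIs and the endothelial gene Pecam1 6. In the Crabp1 cluster each of them had 0. Parental melanoma cells were spiked into both samples, and whether these clusters held them was not tested.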

How the results depend on the processing

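Of 72 alternatives to 8 results, 45 left the value within its error (a count of members within 1.5 times), 24 moved it and 3 turned its direction. For the family over all cells (3.08-fold) the ratio was 2.67 without upper limits, 2.74 with stricter limits and 5.12 thinned to 1000 UMIs. It was 2.40 without doublet calls and mixed cells, 5.13 as a mean over cells and 1.08 without NK-like cells. In T-like cells (1.70) it was 2.25 with stricter limits, 2.35 with cells named singly and 2.25 as a mean over cells. Without doublet calls and mixed cells it was 1.23, and without cells holding NK markers also 1.23. Both of these settings left out T-like cells with at least 3 NK markers. Klra2 (0.778) was 0.945 at equal weight, 0.717 thinned and 0.897 with cells named singly. Klrb1b (0.618) was 0.966 without upper limits and 0.861 with cells named singly. Klra17 (1.16) reversed to 0.575 thinned, 0.641 as a mean over cells and 0.932 without conventional dendritic-like cells, and was 1.59 without neutrophil-like cells. The NK-like share of Klr UMIs (66.9%) was 62.4% without upper limits, 61.2% with stricter limits and 81.5% thinned. It was 62.7% without doublet calls and mixed cells, 69.2% at resolution 2 and 69.2% with cells named singly. The Ly49 mean (2.10) was 1.48 thinned. Where a subset was left out, fewer cells entered by construction, and otherwise the cause was not tested. Members found in at least 10% of NK-like cells numbered 12 to 17 over its 9 alternatives. The 12 came from counting the Klra genes as 1 summed gene, which lowers the count by construction, and the thinned count was 14. Without a minimum of UMIs the members called rose to 9 higher and 4 lower of 19 in T-like cells (16.3% and 14.1% of all genes), 21 higher of 25 in monocyte/macrophage-like cells (14.1%), 6 higher and 1 lower of 15 in conventional dendritic-like cells (11.8% and 12.1%), and 10 higher of 20 in the Cdh1 cluster (16.3%). Leaving out NK-like cells, NK marker cells, neutrophil-like or conventional dendritic-like cells, counting unnamed clusters into a class, and equal weight were chosen after seeing the data. No paired analysis was possible because each group was 1 library and no result came from a test. Depth limits detection in single cells, and ratios from few UMIs have wide intervals.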
